A study of Bos taurus with 12 samples.

Results

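Basement membrane and matrix genes were examined in bovine blastocysts, as a group of 10 genes out of the 18010 genes that have a probe set with exactly 1 gene symbol on the array. The group holds both nidogens (NID1 and NID2), the 3 chains of the laminin trimer of early embryos (LAMA1, LAMB1 and LAMC1), both chains of the common type IV collagen (COL4A1 and COL4A2), perlecan (HSPG2), fibronectin (FN1) and SPARC. The genes were brought together because NID2 was known to lie far below the VIVO embryos in these arrays, and the question was whether its partners in the matrix did the same. The group was thus chosen by the values of NID2 against VIVO, which are given as a description without a test. Each of the 10 genes had a single probe set, and all 10 were among the 24415 probe sets tested.

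The arrays measured 4 groups of blastocysts with 3 arrays each. VITRO embryos came from immature oocytes of slaughterhouse ovaries that were matured, fertilized and cultured in the laboratory. IFOT-M embryos came from slaughterhouse oocytes that were matured in vitro and then placed into the preovulatory follicle of a recipient heifer, so that fertilization and later development took place in the animal. IFOT-IM embryos came from slaughterhouse oocytes placed while still immature into the dominant follicle of a Simmental recipient, where they also matured. VIVO embryos, the control, were flushed from superovulated and inseminated Simmental heifers. All groups were sired by the same bull. Every array took RNA of a separate pool, described in the sources as 15 embryos or as 15 to 20, and only expanded blastocysts of the best quality class were used. The oocytes of VIVO differed in source from those of all other groups, VIVO donors were superovulated, and some IFOT pools may also have held embryos of the recipient's own oocytes, as the study states. These features cannot be told apart from the group labels.

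Basement membranes are thin sheets of extracellular matrix on which epithelia rest. Laminins assemble into a network at the cell surface, type IV collagen builds the other network, and nidogens and perlecan connect both networks. Fibronectin is a matrix protein bound by integrins, and SPARC is a secreted collagen-binding protein that accompanies type IV collagen to the matrix. In the mouse blastocyst the hypoblast, or primitive endoderm, is a strong source of these proteins, and the sheet it lays down separates it from the epiblast.

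The deposited values were made by Robust Multi-Array Average (RMA), which gives 1 value per probe set, and their scale was taken as log2 from the range of the values. Their distribution was not the same on all arrays. VITRO arrays had medians of 1.95 to 1.97, IFOT-M arrays of 1.84 to 1.86, IFOT-IM arrays of 1.86 to 1.93 and VIVO arrays of 1.75 to 1.78. The SD over the probe sets of an array was 1.50 to 1.54 for VITRO, 1.65 to 1.68 for IFOT-M, 1.55 to 1.64 for IFOT-IM and 1.73 to 1.75 for VIVO. The median change of all probe sets in VITRO against VIVO was 0.13 on the log2 scale as deposited, and it was 0.00 after quantile normalization and 0.01 after cyclic loess normalization of the deposited values. Changes are therefore given as deposited. For the members, values after 1 or both of these normalizations are added where a call was different, and for some changes of direction. As deposited, 68.2% of the probe sets called in IFOT-M against VIVO were lower, against 60.5% after quantile and 55.3% after loess normalization. The same shares were 60.7%, 55.9% and 49.0% for VITRO against IFOT-M, and 67.6%, 57.2% and 48.4% for VITRO against IFOT-IM. A gene was called when it passed a false discovery rate (FDR) of 0.1 over all probe sets tested in limma, at any fold change. Precision is limited by the number of arrays, and p-values measure the spread between these pools.

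NID2 (probe set 12695283), a nidogen that binds laminin and type IV collagen, had the lowest values in the embryos of the transferred oocytes. Its log2 values were 2.94, 3.16 and 3.64 in VITRO, 2.48, 2.58 and 2.29 in IFOT-M, 2.38, 2.49 and 2.23 in IFOT-IM, and 4.94, 4.88 and 4.91 in VIVO. All 9 arrays of the other groups thus lay below all 3 VIVO arrays, and all 6 IFOT arrays lay below all 3 VITRO arrays. VITRO averaged 3.25 ± 0.35, IFOT-M 2.45 ± 0.15, IFOT-IM 2.37 ± 0.13 and VIVO 4.91 ± 0.03 (SD, n = 3 each). VITRO thus stood at -1.66 against VIVO, IFOT-M at -2.46 and IFOT-IM at -2.54 (standard error 0.16 each), or 3.16-fold, 5.49-fold and 5.83-fold lower. After quantile normalization these differences were -1.27, -2.19 and -2.30. In pooled whole embryos, fewer cells of a type and less RNA per cell cannot be told apart.

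**Figure D1:**
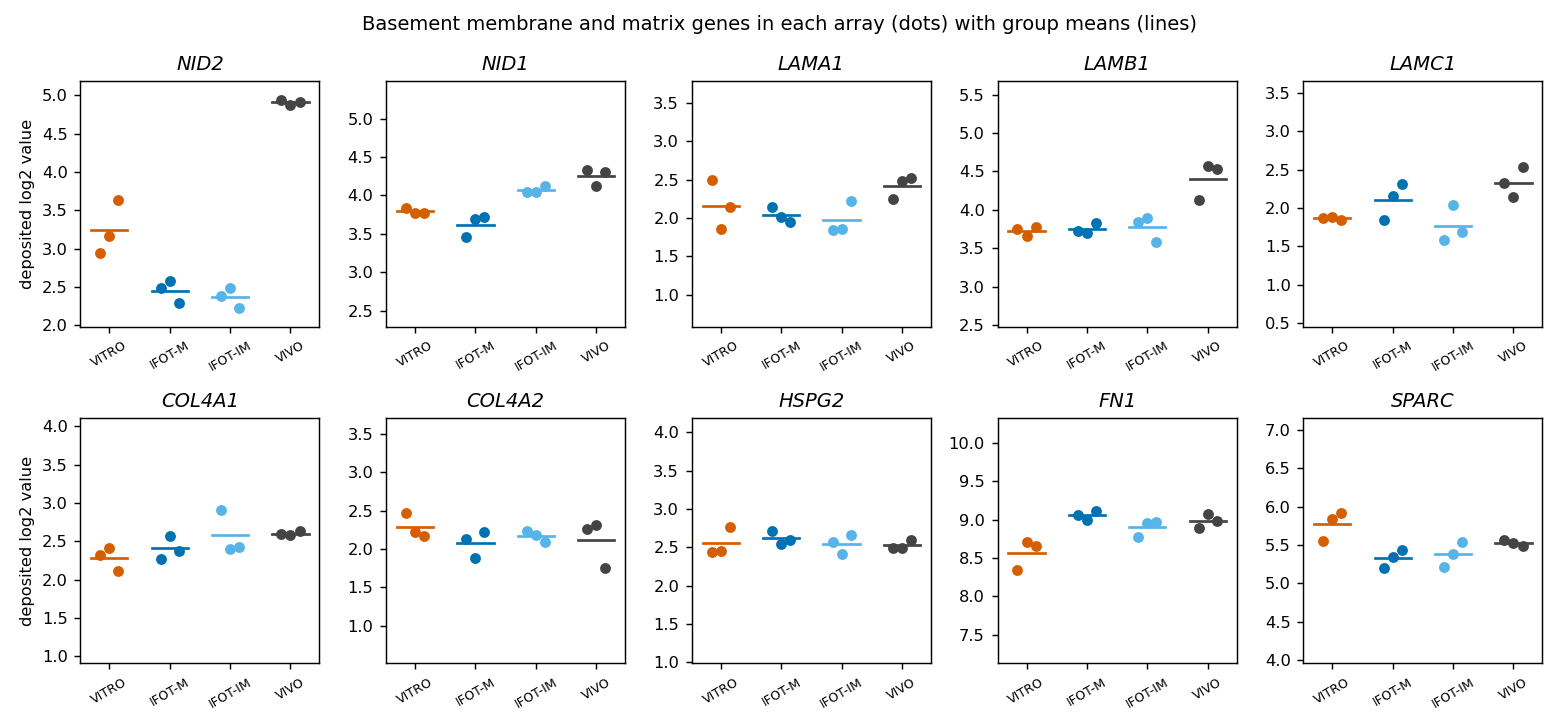
Deposited log2 value of each of the 10 genes in the VITRO, IFOT-M, IFOT-IM and VIVO arrays. Dots are single arrays and lines are the means of 3 arrays, and every panel spans the same number of log2 units. NID2 is the panel in which the VIVO arrays (4.88 to 4.94) stand farthest above the other 9 (2.23 to 3.64), and LAMB1 is the other gene whose 3 VIVO arrays all lie above the 9 others.

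NID2 also differed between the groups made from slaughterhouse oocytes. The same values were part of the fall against VIVO for which NID2 was chosen. The FDR values of NID2 here are therefore not independent of that choice. It was 0.80 higher on the log2 scale in VITRO than in IFOT-M (95% interval 0.44 to 1.15, FDR = 0.00883) and 0.88 higher in VITRO than in IFOT-IM (0.53 to 1.24, FDR = 0.0119). Between IFOT-M and IFOT-IM the difference was 0.08 (-0.27 to 0.44, FDR = 0.927). The order of the levels was thus VIVO, VITRO, then both IFOT groups, which did not differ from each other beyond their spread. In a fit of only VITRO and IFOT-IM the FDR of their difference was 0.106.

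The 9 partners of NID2 did not show a fall of its size in any group. In VIVO, COL4A2 (2.11), LAMC1 (2.33), LAMA1 (2.42), HSPG2 (2.53) and COL4A1 (2.60) had means about as large as the IFOT falls of NID2. A fall of that size could therefore not be seen for these partners. At an FDR below 0.1, 4 of the 9 partners were lower and 0 higher in VITRO than in VIVO, where 22.7% of all probe sets tested were lower and 25.1% higher. In IFOT-M 2 partners were lower and 0 higher (6.87% of all probe sets lower and 3.21% higher), and in IFOT-IM 2 were lower and 0 higher (12.6% and 7.95%). As deposited, the partners had a median log2 change of -0.32 for VITRO, -0.20 for IFOT-M and -0.14 for IFOT-IM, beside medians of 0.13, 0.05 and 0.08 over all probe sets. The partner medians were -0.09, -0.19 and -0.02 after quantile normalization, in this order of groups. After loess normalization they were 0.02, the opposite direction, for VITRO, -0.21 for IFOT-M and -0.03 for IFOT-IM. All 3 VITRO arrays lay below all 3 VIVO arrays for 5 of the 9 partners (23.2% of all probe sets), all 3 IFOT-M arrays for 5 (15.4%) and all 3 IFOT-IM arrays for 3 (17.5%). The 3 comparisons share the VIVO arrays. When a fold change above 2 was also required, as the study did for differentially expressed genes, 0 partners were called in any group, while 5.71% of all probe sets were lower by this rule in VITRO, and 0.901% and 2.02% for IFOT-M and IFOT-IM. After quantile normalization 1 partner, LAMC1, was lower and 1, SPARC, was higher in VITRO (16.6% and 12.9% of all probe sets), and the same was found after loess normalization (14.8% and 13.6%).

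**Figure D2:**
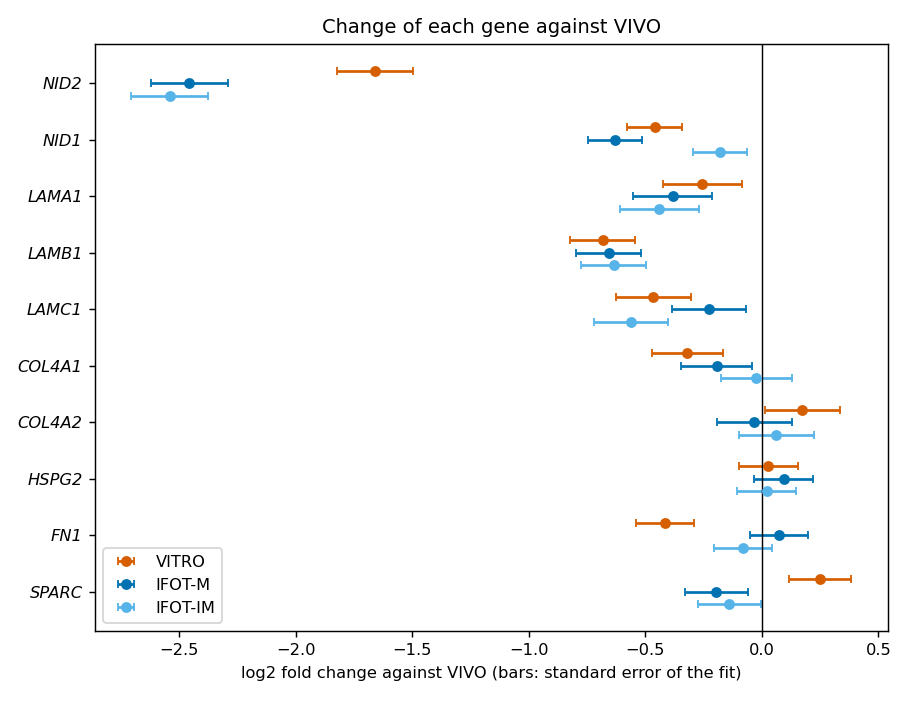
Log2 fold change of each gene in VITRO, IFOT-M and IFOT-IM against VIVO, with the standard error of the limma fit as bars. NID2 lies between -1.66 and -2.54, while the next largest fall of any other member is -0.68 for LAMB1 in VITRO.

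NID1 (12828494), the other nidogen, binds the same partners. The arrays gave 3.83, 3.77 and 3.77 in VITRO, 3.45, 3.69 and 3.72 in IFOT-M, 4.04, 4.04 and 4.13 in IFOT-IM, and 4.33, 4.12 and 4.31 in VIVO. The VITRO and IFOT-M arrays were all below VIVO, while the IFOT-IM arrays overlapped with VIVO. NID1 was 0.63 lower in IFOT-M than in VIVO, a log2 change of -0.63 (standard error 0.12, FDR = 0.00743). In IFOT-IM it was -0.18 (standard error 0.12, FDR = 0.329), with a 95% interval of -0.43 to 0.07. After quantile and loess normalization this change was 0.08 (FDR = 0.763) and 0.09 (FDR = 0.721), the opposite direction. In VITRO it was -0.46 as deposited (standard error 0.12, FDR = 0.00884), but -0.02 after quantile normalization (FDR = 0.931) and 0.04, the opposite direction, after loess normalization (FDR = 0.848). The direct difference of IFOT-M from IFOT-IM was -0.45 with a raw p of 0.00201 in limma and an FDR of 0.555, so it did not pass the correction over all probe sets, although the 3 arrays of IFOT-M lay below the 3 of IFOT-IM, as they did for 6.67% of all probe sets.

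LAMB1 (12854492), the laminin beta 1 chain, was the partner that was lower than VIVO in all 3 groups. Its log2 values were 3.74, 3.66 and 3.77 in VITRO, 3.72, 3.70 and 3.83 in IFOT-M, 3.84, 3.89 and 3.59 in IFOT-IM, and 4.12, 4.57 and 4.53 in VIVO. All 9 arrays of the other groups lay below the 3 VIVO arrays, and VIVO replicate 1 was the lowest of the VIVO arrays. LAMB1 fell by 0.68 in VITRO (FDR = 0.00262), by 0.66 in IFOT-M (FDR = 0.0158) and by 0.64 in IFOT-IM (FDR = 0.0100), each with a standard error of 0.14. These are levels 1.61-fold, 1.58-fold and 1.55-fold lower. After quantile normalization the changes were -0.24 in VITRO (FDR = 0.256), -0.46 in IFOT-M (FDR = 0.0944) and -0.36 in IFOT-IM (FDR = 0.147), and after loess normalization they were -0.18 (FDR = 0.398), -0.48 (FDR = 0.0733) and -0.37 (FDR = 0.135). The call thus held under all 3 normalizations in IFOT-M only, while the direction was lower in each group. As deposited, VITRO, IFOT-M and IFOT-IM differed from each other by no more than 0.05 in LAMB1, with FDR values of 0.887 or above. After loess normalization VITRO was 0.29 above IFOT-M in LAMB1 (FDR = 0.254).

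LAMC1 (12736592), the gamma 1 chain present in most laminins, was low on all arrays. Its log2 values were 1.86, 1.88 and 1.84 in VITRO, 1.84, 2.16 and 2.31 in IFOT-M, 1.58, 2.04 and 1.69 in IFOT-IM, and 2.32, 2.14 and 2.53 in VIVO. The VITRO and IFOT-IM arrays lay below all VIVO arrays, and the IFOT-M arrays overlapped with them. LAMC1 fell by 0.47 in VITRO (standard error 0.16, FDR = 0.0375) and by 0.56 in IFOT-IM (standard error 0.16, FDR = 0.0355), and its change in IFOT-M was -0.23 (FDR = 0.475). Without VIVO replicate 3, the highest of the VIVO arrays, the FDR was 0.139 in VITRO and 0.140 in IFOT-IM, and without IFOT-IM replicate 1 it was 0.134 in IFOT-IM. Both calls were kept after quantile normalization (FDR = 0.0184 and 0.0300) and after loess normalization (FDR = 0.0150 and 0.0199).

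LAMA1 (12809293), the alpha 1 chain that carries the cell-binding end of the trimer, did not pass the threshold in any comparison as deposited. On the log2 scale it stood at 2.49, 1.85 and 2.14 in VITRO, 2.14, 2.01 and 1.95 in IFOT-M, 1.85, 1.86 and 2.23 in IFOT-IM, and 2.25, 2.48 and 2.53 in VIVO. All 6 IFOT arrays lay below the VIVO arrays, whereas VITRO replicate 1 lay within them. The change was -0.26 in VITRO (FDR = 0.239), -0.38 in IFOT-M (FDR = 0.223) and -0.44 in IFOT-IM (FDR = 0.105). In IFOT-IM the FDR was 0.0717 after loess normalization. The 3 chains of the trimer therefore all had negative values against VIVO in every group, with LAMB1 called in all 3 groups, LAMC1 in VITRO and IFOT-IM, and LAMA1 in none.

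The type IV collagen chains, which share a heterotrimer and are neighbours in the RefSeq annotation of the cattle genome, did not pass the threshold against VIVO. The log2 values of COL4A1 (12711158) were 2.32, 2.41 and 2.11 in VITRO, 2.28, 2.57 and 2.38 in IFOT-M, 2.91, 2.40 and 2.42 in IFOT-IM, and 2.59, 2.58 and 2.63 in VIVO. VITRO and IFOT-M arrays lay just below the narrow range of VIVO, and IFOT-IM replicate 1 was the highest of all 12 arrays. The change of COL4A1 was -0.32 in VITRO (95% interval -0.65 to 0.01, FDR = 0.114), -0.19 in IFOT-M (-0.52 to 0.14) and -0.02 in IFOT-IM (-0.36 to 0.31). COL4A2 (12709330) ranged from 2.17 to 2.47 in VITRO, from 1.89 to 2.23 in IFOT-M, from 2.10 to 2.24 in IFOT-IM and from 1.76 to 2.32 in VIVO. Its groups overlapped, and its changes were 0.17 (-0.18 to 0.52), -0.03 (-0.38 to 0.32) and 0.06 (-0.29 to 0.41) in VITRO, IFOT-M and IFOT-IM. In IFOT-IM the change of COL4A2 was -0.03 after quantile and after loess normalization.

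HSPG2 (12775110), the heparan sulfate proteoglycan perlecan, had nearly the same level in all groups. It ranged from 2.44 to 2.77 in VITRO, from 2.55 to 2.72 in IFOT-M, from 2.41 to 2.66 in IFOT-IM and from 2.49 to 2.60 in VIVO. Against VIVO the change was 0.03 for VITRO, 0.09 for IFOT-M and 0.02 for IFOT-IM, with 95% intervals of -0.25 to 0.30, -0.18 to 0.37 and -0.25 to 0.29. Values of LAMA1, LAMC1 and COL4A2 lay close to the median of all probe sets on an array. No detection calls were used here, so whether these signals exceeded the background of the array was not tested.

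FN1 (12780102), the matrix ligand of several integrins, was called as lower in VITRO from the deposited values but not after either other normalization. The log2 values were 8.35, 8.71 and 8.65 in VITRO, 9.06, 9.001 and 9.11 in IFOT-M, 8.78, 8.95 and 8.97 in IFOT-IM, and 8.90, 9.08 and 8.98 in VIVO. The VITRO arrays lay below the arrays of every other group, and both IFOT groups overlapped with VIVO. In VITRO FN1 was -0.42 against VIVO as deposited (standard error 0.13, FDR = 0.0215), but -0.09 after quantile normalization (FDR = 0.581) and 0.10, the opposite direction, after loess normalization (FDR = 0.564). Against IFOT-M the difference of VITRO was -0.49 (standard error 0.13, FDR = 0.0236), with -0.25 (FDR = 0.174) and -0.12 (FDR = 0.560) after these normalizations. The changes of FN1 were 0.07 in IFOT-M (95% interval -0.20 to 0.35) and -0.08 in IFOT-IM (-0.35 to 0.19) against VIVO. In IFOT-IM the change was 0.12 after quantile (FDR = 0.569) and 0.24 after loess normalization (FDR = 0.211), the opposite direction.

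SPARC (12883285), the secreted collagen-binding protein, had its highest group mean in VITRO. The arrays read 5.55, 5.84 and 5.92 in VITRO, 5.19, 5.34 and 5.44 in IFOT-M, 5.22, 5.39 and 5.54 in IFOT-IM, and 5.56, 5.52 and 5.48 in VIVO. All VITRO arrays lay above all IFOT arrays, while VITRO replicate 1 lay within the range of VIVO. Against VIVO the change in VITRO was 0.25 as deposited (standard error 0.13, FDR = 0.156), and 0.81 after quantile normalization (FDR = 0.000724) and 0.94 after loess normalization (FDR = 0.000204). The change against VIVO was -0.20, 0.01 and 0.04 in IFOT-M as deposited, after quantile and after loess normalization. In IFOT-IM it was -0.14, 0.21 and 0.25 in this order, and SPARC was not called in either IFOT group. The difference of VITRO from IFOT-M was 0.45 as deposited (standard error 0.13, FDR = 0.0451), and 0.80 after quantile (FDR = 0.00318) and 0.90 after loess normalization (FDR = 0.00135). As deposited, its FDR was 0.105 without VITRO replicate 2, 0.120 without VITRO replicate 3, 0.158 without IFOT-M replicate 1 and 0.132 with an RNA integrity number (RIN) per array as a covariate. The study lists the RIN by group and number, and that these numbers are those of the arrays is assumed here. VITRO was 0.39 above IFOT-IM as deposited (FDR = 0.122) and 0.60 above it after quantile normalization (FDR = 0.0207).

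**Figure D3:**
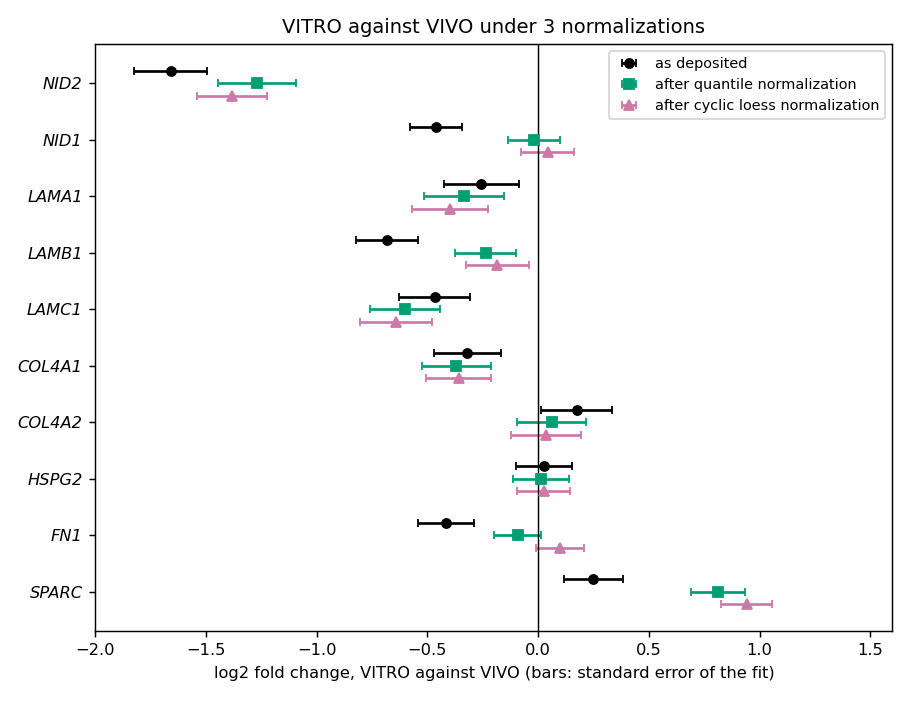
Log2 fold change of each gene in VITRO against VIVO from the values as deposited, after quantile normalization and after cyclic loess normalization, with the standard error of the fit as bars. NID2 (-1.66, -1.27 and -1.38) and LAMC1 (-0.47, -0.60 and -0.64) stay below 0, NID1 and FN1 move to about 0, and SPARC goes to 0.81 and 0.94.

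Among the direct comparisons of the groups made from slaughterhouse oocytes, 1 member was lower (FN1) and 2 were higher (NID2 and SPARC) in VITRO than in IFOT-M, where 12.9% of all probe sets were lower and 8.38% higher. In VITRO against IFOT-IM 0 members were lower and 1, NID2, was higher, beside 5.86% and 2.81% of all probe sets. For IFOT-M against IFOT-IM limma called 0 members and 0 of all probe sets, and 1 member, NID1, had an unadjusted p below 0.05, as had 1855 of all probe sets. After quantile normalization NID1 was 0.42 higher in VITRO than in IFOT-M (FDR = 0.0460), beside 0.17 as deposited (FDR = 0.351).

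Other matrix genes were taken from fixed lists, and their calls are read against the shares of all probe sets called in each group. For VITRO these were 22.7% lower beside 25.1% higher, for IFOT-M 6.87% beside 3.21%, for IFOT-IM 12.6% beside 7.95%. None of the 7 other laminin chains tested was lower than VIVO in any group as deposited, 2 (28.6%) were higher in VITRO, and 0 were higher in either IFOT group. Of 22 other basement membrane proteins VITRO had 1 lower (4.55%) and 6 higher (27.3%, near the share of all probe sets), IFOT-M had 0 and 0, and IFOT-IM had 1 and 0. FBLN2 (fibulin 2), a protein that binds nidogens and laminins, fell by 0.96 in VITRO (standard error 0.15, FDR = 0.000429), and by 0.72 after quantile normalization. COL18A1, the collagen from which endostatin is cut, rose by 0.61 in VITRO (standard error 0.14, FDR = 0.00409). After quantile normalization 1 laminin chain was lower and 0 higher in VITRO, and 1 other basement membrane protein was lower and 1 higher.

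Receptors for these proteins were called about as often as all probe sets in the IFOT groups. Of 25 receptors of laminin, collagen and fibronectin, IFOT-M had 2 lower (8%) and 0 higher, and IFOT-IM had 3 lower (12%) and 2 higher (8%). VITRO had 9 lower (36%) and 4 higher (16%) as deposited, but 3 lower and 1 higher after quantile normalization, where 16.6% and 12.9% of all probe sets were called. The median change of the list was 0.07, 0.00 and -0.07 in VITRO, IFOT-M and IFOT-IM, beside 0.13, 0.05 and 0.08 over all probe sets. DAG1 (dystroglycan), a receptor that binds laminins and perlecan, ranged from 3.17 to 3.52 in VITRO, from 3.28 to 3.76 in IFOT-M, from 3.25 to 3.53 in IFOT-IM and from 4.14 to 4.55 in VIVO. Its values in VIVO thus lay above those of all 9 other arrays, as for NID2 and LAMB1. The share of all probe sets with this pattern was not computed. DAG1 fell by 0.94 in VITRO (FDR = 0.00114), by 0.75 in IFOT-M (FDR = 0.0200) and by 0.91 in IFOT-IM (FDR = 0.00391), each with a standard error of 0.17, and it remained called in each group after both other normalizations, with FDR values of 0.0788 or below. ITGB5, an integrin beta chain, fell by 0.97 in VITRO (standard error 0.18, FDR = 0.00145).

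Genes that fold and crosslink collagen were called no more often than all probe sets. Of 26 of them VITRO had 4 lower (15.4%) and 5 higher (19.2%), IFOT-M had 1 (3.85%) and 0, and IFOT-IM had 3 (11.5%) and 0. MIA3, which helps bulky collagens leave the endoplasmic reticulum, fell by 1.00 in VITRO (standard error 0.16, FDR = 0.000468), and P4HA2, a collagen prolyl hydroxylase subunit, fell by 0.86 in IFOT-IM (standard error 0.20, FDR = 0.0120). Of 30 matrix proteases and inhibitors VITRO had 4 lower (13.3%) and 9 higher (30%), IFOT-M had 3 (10%) and 2 (6.67%), and IFOT-IM had 5 (16.7%) and 4 (13.3%). ADAM10, a membrane-bound sheddase, fell by 1.10 in VITRO (standard error 0.12, FDR = 4.49e-05). PLAU, the urokinase that activates plasminogen, rose by 0.57 in IFOT-M (standard error 0.12, FDR = 0.0187) and by 0.60 in IFOT-IM (standard error 0.12, FDR = 0.00746), and all 6 IFOT arrays, at 3.90 to 4.07, lay above the VIVO arrays, at 3.38 to 3.48. Of 25 other extracellular matrix proteins VITRO had 5 lower (20%) and 11 higher (44%), and each IFOT group had 2 (8%) and 0. After quantile normalization the counts in VITRO were 2 lower and 1 higher for collagen folding, 2 and 5 for proteases, and 3 and 3 for the other matrix proteins.

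**Figure D4:**
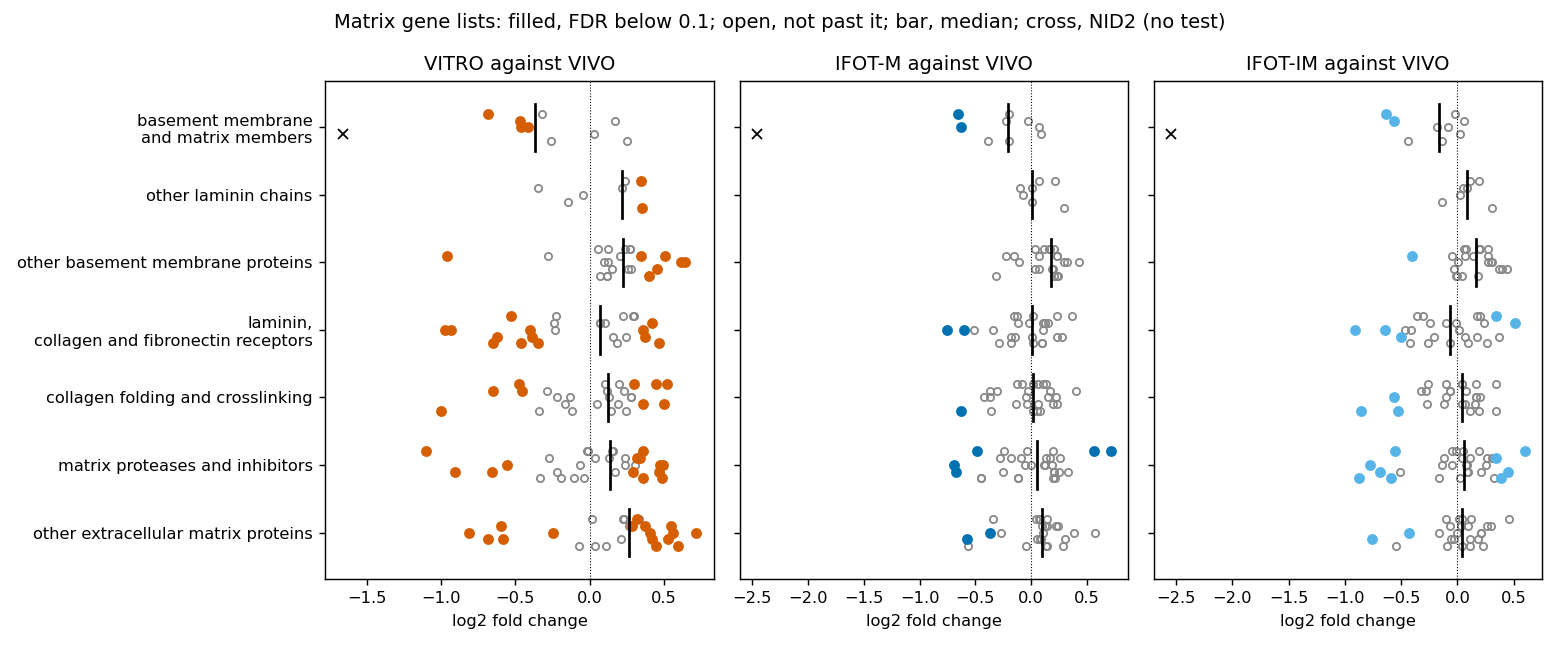
Log2 fold change against VIVO of every gene of 7 lists in VITRO, IFOT-M and IFOT-IM. Filled points passed an FDR of 0.1, open points did not, the cross is NID2, shown without a test, and the black bar is the median of the list with NID2 included. The cross is at the far left of each panel, and in the IFOT panels few points of the other lists are filled.

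Markers of the lineages of a blastocyst were read on the same arrays, without detection calls. Hypoblast markers, as the sum of their linear levels over 12 genes, were 288 to 323 for VITRO, 422 to 449 for IFOT-M, 366 to 454 for IFOT-IM and 484 to 495 for VIVO. GATA6 carried most of this sum, and without it the sums were 115 to 130.2, 155 to 183, 131 to 161 and 164 to 169. The mean log2 value over the 12 genes was 2.89 to 2.94 for VITRO, 2.92 to 2.98 for IFOT-M, 2.96 to 3.06 for IFOT-IM and 2.995 to 3.001 for VIVO, so that by this measure VITRO and IFOT-M lay only slightly below VIVO. VITRO had 3 of the 12 lower (25%) and 2 higher (16.7%), IFOT-M had 1 (8.33%) and 0, and IFOT-IM had 2 (16.7%) and 1 (8.33%). GATA6, a transcription factor of the hypoblast, ranged from 7.44 to 7.66 in VITRO, from 8.03 to 8.06 in IFOT-M, from 7.87 to 8.19 in IFOT-IM and from 8.30 to 8.37 in VIVO. The other hypoblast factors SOX17, singled out after its values were seen, and GATA4 lay between 1.07 and 1.93 on all 12 arrays, near or below the medians of the arrays. Summed epiblast markers were 209 to 221 for VITRO, 305 to 315 for IFOT-M, 288 to 328 for IFOT-IM and 345 to 359 for VIVO, and trophectoderm markers 475 to 529, 763 to 840, 528 to 722 and 746 to 833. As mean log2 values the epiblast markers were 3.42 to 3.51, 3.80 to 3.84, 3.85 to 3.92 and 3.80 to 3.90 in this order of groups, and the trophectoderm markers 3.45 to 3.58, 3.75 to 3.82, 3.65 to 3.80 and 3.85 to 3.996. Of 12 epiblast markers VITRO had 5 lower (41.7%) and 1 higher (8.33%), IFOT-M 0 and 0, and IFOT-IM 0 and 1 (8.33%). Of 14 trophectoderm markers VITRO had 9 lower (64.3%) and 1 higher (7.14%), IFOT-M 3 (21.4%) and 0, and IFOT-IM 5 (35.7%) and 1 (7.14%). All calls of marker lists, here and in the next paragraph, are from the deposited values. For VITRO against VIVO, limma called 22.7% of all probe sets lower and 25.1% higher. These shares were 6.87% and 3.21% for IFOT-M, and 12.6% and 7.95% for IFOT-IM. Counts of the marker lists after quantile or loess normalization are not given here. GATA6, called lower in IFOT-IM as deposited, stood at 0.04 against VIVO after loess normalization. The part of these lineage markers in the changes of the matrix genes was not tested.

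Markers of cells outside the embryo were also read. The summed level of 13 cumulus and granulosa cell markers was 46.0 to 47.9 for VITRO, 45.5 to 46.1 for IFOT-M, 45.4 to 51.1 for IFOT-IM and 55.6 to 64.7 for VIVO. Without HSD3B1, a steroid dehydrogenase singled out after its values were seen, the sums were 40.03 to 42.5 for VITRO, 35.9 to 38.5 for IFOT-M, 37.5 to 42.1 for IFOT-IM and 35.8 to 39.6 for VIVO, so that both IFOT groups overlapped with VIVO and VITRO lay above it. The mean log2 values of all 13 genes were 1.65 to 1.74 for VITRO, 1.595 to 1.63 for IFOT-M, 1.64 to 1.73 for IFOT-IM and 1.59 to 1.73 for VIVO, and each group overlapped with VIVO. VITRO had 2 lower (15.4%) and 2 higher (15.4%), IFOT-M had 2 (15.4%) and 0, and IFOT-IM had 2 (15.4%) and 1 (7.69%). HSD3B1 itself stood at 2.21 to 2.86 for VITRO, 2.86 to 3.36 for IFOT-M, 2.99 to 3.17 for IFOT-IM and 4.31 to 4.70 for VIVO. Some of the 10 stromal fibroblast markers are also on the list of other matrix proteins. Of the 10 stromal markers VITRO had 1 lower (10%) and 6 higher (60%), and each IFOT group had 1 (10%) and 0. Their sum was 35.6 to 41.6 for VITRO, 29.9 to 32.8 for IFOT-M, 30.1 to 32.3 for IFOT-IM and 27.8 to 31.6 for VIVO. Of 13 uterine and oviduct epithelium markers VITRO had 1 lower (7.69%) and 5 higher (38.5%). IFOT-M had 1 (7.69%) and 1 (7.69%) of them, and IFOT-IM had 1 (7.69%) and 2 (15.4%). VITRO embryos were cultured in the laboratory and were not in an oviduct or uterus. The 5 markers higher in VITRO had VIVO means of 0.93 to 2.02, near or below the medians of the VIVO arrays. Of 12 blood cell markers VITRO had 1 lower (8.33%) and 4 higher (33.3%), and each IFOT group had 2 (16.7%) and 0. The sums ran from 45.4 to 57.1 and from 47.3 to 63.9 over the 12 arrays. The part of these cells in the changes was not tested.

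With the RIN as a covariate, matched to the arrays as assumed above, the partners called against VIVO were the same, namely NID1, LAMB1, LAMC1 and FN1 in VITRO, NID1 and LAMB1 in IFOT-M, and LAMB1 and LAMC1 in IFOT-IM.

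The pattern of NID2 over the 12 arrays was also set beside that of all other genes, as a description of arrays that share 3 VIVO pools. The 5 genes with the highest Pearson correlation with NID2 were PSPH (0.971), an enzyme of serine synthesis, TRAFD1 (0.968), a regulator of innate immune signals, TIMM8B (0.966), a chaperone of mitochondrial import, PAGE4 (0.966) and SC5D (0.965), an enzyme of cholesterol synthesis. PSPH ranged from 2.85 to 3.09 in VITRO, from 2.46 to 2.64 in IFOT-M, from 2.42 to 2.64 in IFOT-IM and from 4.38 to 4.65 in VIVO. None of these 5 is a matrix gene. Of the partners, LAMB1 had the highest correlation with NID2 (0.840, rank 253 of 17552 probe sets with 1 symbol), followed by LAMA1 (0.645, rank 1494), NID1 (0.605, rank 1792) and LAMC1 (0.599, rank 1845). SPARC stood at 0.354, COL4A1 at 0.187, FN1 at 0.04, COL4A2 at -0.10 and HSPG2 at -0.14.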

How the data were processed

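RNA of pooled blastocysts was hybridized to Affymetrix Bovine Gene ST arrays, 3 per group. The authors corrected the background and normalized by quantiles with RMA in Expression Console, and the deposited values are taken to be log2, a base inferred from their range. The unequal distributions of the arrays are not what joint quantile normalization gives, and how that step was run is not given in the sources used here. Of 26773 probe sets the 2358 with the lowest mean were removed, and 24415 were tested, as many as the study kept. Of all probe sets 18457 carried 1 gene symbol, 688 several and 7628 none.

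All 4 groups were modelled at once in limma 3.58.1 (R 4.3.3) on 8 residual degrees of freedom, with two-sided tests and Benjamini-Hochberg FDR over all probe sets tested. Each array is a separate pool, and no 2 arrays shared more than 0.430% of their values. The pipeline was tested on simulated data. Results were recomputed with each pair of groups fitted alone, with no filter or a stricter one, after quantile or cyclic loess normalization, with other variance models or array weights, with RIN in the model (listed by the study and matched to arrays by group and number), with a replicate block, at other thresholds, with 1 value per gene symbol, and without each array in turn.

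The members and lists were chosen with earlier results of these data known. Genes named are all members, the 5 genes most correlated with NID2, and up to 4 genes of each list with the largest called change, and beside these SOX17 and HSD3B1 were named after their values were seen. Genome coordinates were used only to find the neighbouring genes of each member, and sequences were not used here. Raw intensities were not analysed here.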

Additional observations from a re-analysis of the deposited data

Results flagged for a closer look

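Differences between groups in their distance from VIVO drew attention where the direct comparison passed an FDR of 0.1 in limma. NID2 was 0.80 higher on the log2 scale in VITRO than in IFOT-M and 0.88 higher in VITRO than in IFOT-IM. In 3 of 3 VITRO arrays it lay above all arrays of either IFOT group. These calls of NID2 are not independent of its choice by the fall against VIVO. FN1 was lower in VITRO than in IFOT-M, with a log2 difference of -0.49 as deposited, -0.25 after quantile and -0.12 after loess normalization, and was not called after either. SPARC was higher in VITRO than in IFOT-M, with a log2 difference of 0.45 as deposited, 0.80 after quantile and 0.90 after loess normalization.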

How the results depend on the processing

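The number of partners of NID2 called in VITRO against VIVO was 4 as deposited and 2 after both quantile and cyclic loess normalization (LAMC1 and SPARC). In IFOT-IM against VIVO it was 2 as deposited and 1 (LAMC1) after quantile normalization, and 1 (LAMB1) without IFOT-IM replicate 1 or without VIVO replicate 3. Turns of direction under loess normalization were listed only for members and named list genes called as deposited. In VITRO against VIVO these were NID1 (0.0421), FN1 (0.0991), SDC4 (0.0376), P4HB (0.0255) and MFGE8 (0.0053), and in IFOT-IM against VIVO GATA6 (0.0361). Members not called as deposited also turned, among them NID1 (0.0906), FN1 (0.237) and SPARC (0.253) in IFOT-IM against VIVO. At a fold change above 2, 0 partners were called in each comparison with VIVO, and 0 members in VITRO against IFOT-M and in VITRO against IFOT-IM. For VITRO against IFOT-IM, where 1 member was called, a fit of only these groups called 0, and a stricter filter, quantile normalization, loess normalization, a robust and trended variance and leaving out VITRO replicate 1 each called 2. The cause of these differences was not tested. Each array of the 2 groups compared was left out in turn. Then 3 to 6 partners were called in VITRO against VIVO, 2 in IFOT-M and 1 to 3 in IFOT-IM. For the direct comparisons, 2 to 3 members were called in VITRO against IFOT-M, 1 to 2 in VITRO against IFOT-IM, and 0 in IFOT-M against IFOT-IM. The shares of all probe sets called in these fits are not given here. Under these and the other alternatives 98 counts of called partners or members stayed within 1.5 times the value as reported and 16 did not. Of the 98, 19 are from IFOT-M against IFOT-IM, where 0 members were called under every alternative. The rule compares totals only. VITRO against IFOT-M had 1 member lower and 2 higher as deposited, but 0 lower and 3 higher after quantile or loess normalization.

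With the replicate number as a block, 4, 2 and 2 partners were called in VITRO, IFOT-M and IFOT-IM against VIVO, and 3, 1 and 0 members in the other comparisons, the same counts as without it. What the replicate numbers stand for is not stated in the labels. Of 18 pairs of arrays with the same number, 1 had deviations correlated above 0.1 (range -0.08 to 0.12). Yet 8 of 12 arrays were nearest to an array of their own number. Whether arrays with the same number shared a batch was not tested. Signal over background was not analysed here, and it limits what can be said of LAMA1, LAMC1 and COL4A2, whose values lie near the median of an array.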
